A study of Mus musculus with 6 samples.

Results

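The long noncoding RNAs described here are the 192 autosomal genes, of 41721 in the count table, whose biotype is lincRNA, antisense, processed_transcript, sense_intronic, sense_overlapping or bidirectional_promoter_lncRNA and whose raw counts sum to at least 300 over the 6 libraries. They were selected on that summed count from the 5812 autosomal genes of these biotypes, and Meg3, which also passed the minimum, was set aside by rule together with H19. The libraries are RNA sequencing of MASMCs, smooth muscle cells cultured from the abdominal aorta of mice, with 3 cultures of Pdk4 fl/fl cells and 3 of Pdk4 SMKO cells. Both genotypes carry the floxed Pdk4 allele (loxP sites around exons 4 to 6, C57BL/6J background) and received tamoxifen at 75 mg/kg/day for 5 days, and the SMKO mice also carry the Y-linked Myh11-icre/ERT2 transgene, active in smooth muscle. The mice were male and 10 weeks old, cells were used at passages 4 to 8, and all 6 cultures were treated with Ang II, at 1 μM for 48 h per the study's methods. The comparison asks how loss of Pdk4, a kinase that restrains pyruvate dehydrogenase, goes with the level of each RNA. The study describes the samples as biological replicates, but neither it nor the labels say whether each culture came from a separate mouse, so the p-values measure the spread between these samples, which may be technical.

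Long noncoding RNAs are transcribed and often spliced like mRNAs but are not known to code for a protein. Some stay in the nucleus and scaffold nuclear bodies, such as Malat1 in speckles and Neat1 in paraspeckles. Some are valued for what lies in their introns or exons: snoRNA host genes release the small nucleolar RNAs that guide the modification of ribosomal RNA, and miRNA host genes are the primary transcripts of microRNAs. Others are transcribed away from the promoter of a neighbouring protein-coding gene, and in smooth muscle several have been tied to growth, contractile state and stress.

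The 6 libraries held 16526044 to 22481670 counts. Correlations of log2 CPM (CPM being counts scaled to the TMM-adjusted library total, the scale of every level given here) were at least 0.981 within a genotype and at most 0.748 between genotypes. Pdk4 was at 35.0 ± 3.07 CPM in fl/fl and 6.93 ± 2.11 CPM in SMKO cultures (SD, n = 3). Xist had 3, 4 and 5 counts in the fl/fl libraries and 610, 347 and 321 in the SMKO libraries, although the mice are described as male. Summed over 8 smooth muscle markers, levels ran from 785 to 811 CPM in fl/fl and from 723 to 954 CPM in SMKO libraries. Tagln, Smtn and Cnn1 were lower in SMKO (log2 fold changes -2.26, -2.28 and -1.50), and Myocd was not called. Acta2, Lmod1, Myh11 and Des were higher (1.59, 2.34, 1.97 and 2.83), and Acta2 alone averaged 233 CPM in fl/fl and 701 CPM in SMKO. Myh11, a defining marker, had 8, 10 and 10 counts in fl/fl and 62, 44 and 46 in SMKO. The 8 mesothelial markers summed to 86.8 ± 12.9 CPM in fl/fl (SD, n = 3) and to 723 to 1324.7 CPM in SMKO, and 7 of the 7 tested were higher in SMKO. The 8 fibroblast markers summed to 629 to 858 CPM in fl/fl and 5156.5 to 7060.6 CPM in SMKO, with 4 of 8 higher and 1 lower. Most of that sum was Col1a1, which alone averaged 619.7 CPM in fl/fl and 5900.5 CPM in SMKO. Dcn, Lum and Cd34 were also higher, Dpt was lower (-1.02), and Pdgfra, Scara5 and Pi16 were not called. The 7 macrophage markers in the table summed to 21.4 to 38.0 CPM in fl/fl and 9.71 to 30.5 CPM in SMKO. Of the 6 tested, 5 were higher and 1 lower. The lower one was Cd68 (-2.85), at a mean of 31.2 CPM in fl/fl, where all 7 together averaged 31.4 CPM, and of 4.29 CPM in SMKO. Adgre1, Tyrobp, C1qa and C1qb were at 0 in all 3 fl/fl libraries. The 8 endothelial markers summed to 16.0 to 24.9 CPM in fl/fl and 3.33 to 6.72 CPM in SMKO, with 2 of the 3 tested lower. The part of these markers in the results below was not tested, and fewer cells of a type cannot be told apart from less RNA per cell.

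Among the 192 long noncoding RNAs, 74 were lower (38.5%) and 62 higher (32.3%) in SMKO cultures, where a call needs a Benjamini-Hochberg adjusted p under 0.05 from edgeR's quasi-likelihood test over all 14085 genes tested and a fold of at least 2. Over all genes tested, 26.5% were lower and 32.8% higher, so the share higher was close to the background and the share lower was above it. Over the 10384 autosomal protein-coding genes with the same minimum count, 25.5% were lower and 30.5% higher. These shares are the background to every later count of calls. The median change (log2) was -0.46 over the long noncoding RNAs, 0.12 over all genes tested and 0.08 over those protein-coding genes. The members' median depends on the minimum count: with a summed count of at least 100, 445 genes entered, 140 were lower (31.5%) and 168 higher (37.8%), and the median turned to 0.41. With library totals alone in place of TMM scaling, which moved the median of all genes up by 0.60, 59 members were lower and 74 higher and the members' median was 0.15 against 0.72 for all genes. In 168 of the 192 (87.5%) the CPM of the genotypes did not overlap, against 81.8% of all genes tested, with SMKO below fl/fl in 95 and above it in 73.

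**Figure D1:**
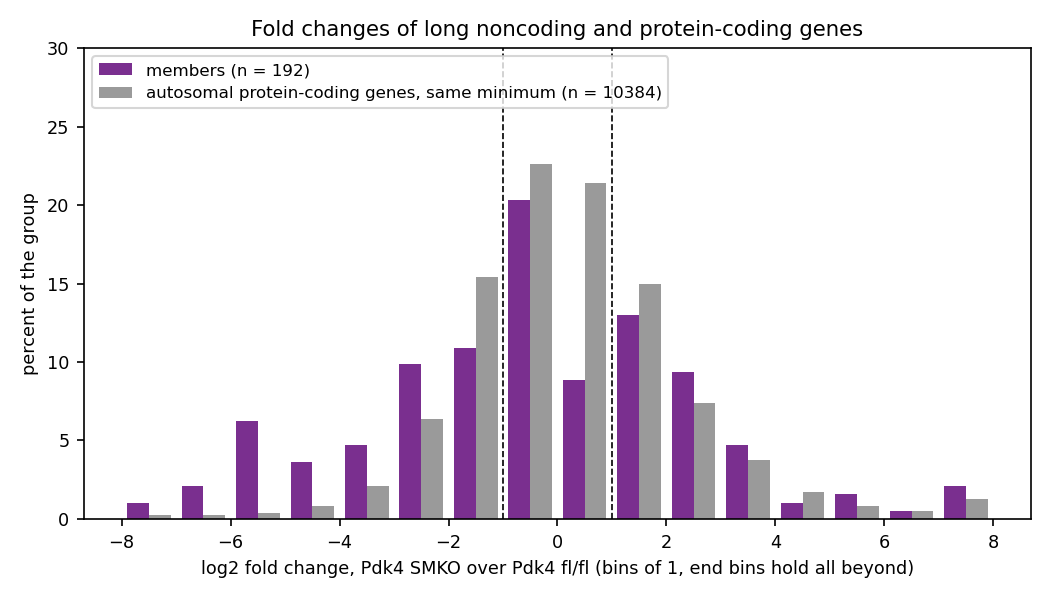
Share of each group (percent, y axis) in bins of log2 fold change, SMKO over fl/fl (x axis, bins of 1, the end bins holding all values beyond). Purple bars are the 192 long noncoding RNAs and grey bars the 10384 autosomal protein-coding genes with the same minimum count. The purple bars stand above the grey ones in every bin below -2, and in every bin above 2 except that from 4 to 5.

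The minimum was set on the summed counts of these same libraries, so a gene silent in 1 genotype passed only if it was high in the other. Of the members, 36 had under 150 counts in SMKO, and 36 of these 36 were lower. Another 54 had under 150 counts in fl/fl, of which 48 were higher. Among the 102 with at least 150 counts in each genotype, 38 were lower, 14 were higher and 50 were not called, with a median of -0.70. Protein-coding genes under the same condition were lower in 27.1% and higher in 23.2% of cases. Of the 63 members with at least 1000 counts, 50.8% were lower and 25.4% higher (median -1.20), against 27.2% and 27.1% of the protein-coding genes with as many (median -0.06). Of the 129 members with fewer, 32.6% were lower and 35.7% higher (median -0.18), against 17.6% and 46.7% of such protein-coding genes (median 0.84). The members' median thus lay below that of protein-coding genes in both ranges of count. Just inside the minimum lay Gm12602, Gm17491 and B930036N10Rik, at log2 fold changes of 0.99, -0.47 and -4.70, and just outside it Gm19708 (288 counts, 0 in every SMKO library), 2610507I01Rik (286 counts) and 4933421O10Rik (286 counts).

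**Figure D2:**
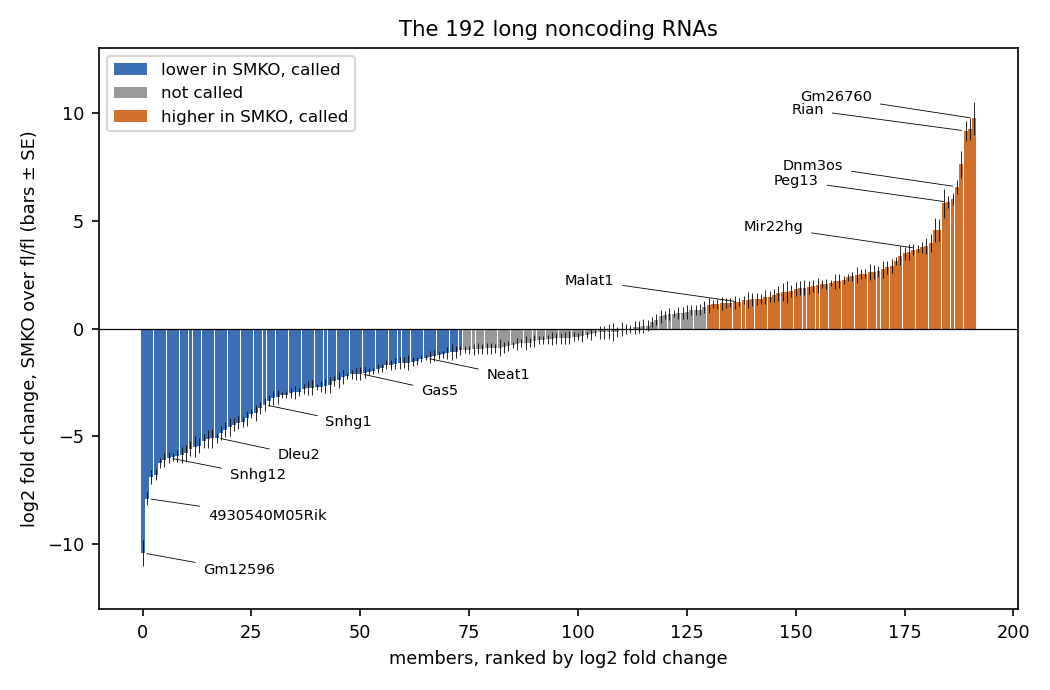
The 192 long noncoding RNAs ranked by log2 fold change, SMKO over fl/fl (bars, with SE as thin lines). Blue bars are the 74 called lower, grey the 56 not called and orange the 62 called higher, and named bars run from Gm12596, with 0 counts in SMKO, to Gm26760, with 0 counts in fl/fl. For Gm12596 and Gm26760 the bar is a fitted value and gives no bound on the fold.

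Lower values were frequent among the snoRNA hosts, whose spliced exons are mostly degraded while their introns yield snoRNAs. By position, 17 members span at least 1 snoRNA or scaRNA gene on their own strand. Of the 17, 12 were lower (70.6%), 2 were higher (11.8%) and 3 were not called, with a median of -2.60 on the log2 scale. Over all genes tested 26.5% were lower and 32.8% higher, and over all 192 members 38.5% and 32.3%. Of the 24 hosts on the list of names used here, 11 are members, of which 8 were lower, 1 was higher and 2 were not called, with Snhg3 and Dancr at 0 counts in every library. Together the 17 took 2223.0, 2481.4 and 4179.1 CPM in the fl/fl libraries and 601, 564 and 652 CPM in the SMKO libraries. Reads on the snoRNAs themselves were few in these libraries, at 52.9 to 166 CPM over 1271 snoRNA genes, so the small RNAs were not measured.

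Snhg12, which carries 5 snoRNA genes, was at 297, 338 and 544 CPM in fl/fl and 5.62, 5.92 and 7.02 CPM in SMKO cultures, 63.5-fold lower (log2 fold change -5.99, SE 0.26, adjusted p = 3.5e-08, edgeR). Snhg15 was at 122, 171 and 263 CPM against 9.83, 8.26 and 7.06 CPM, 22.1-fold lower. 2410006H16Rik, host of Snord49a, Snord49b and Snord65, was at 348, 397 and 699.7 CPM against 29.4, 39.5 and 44.8 CPM. In these hosts every SMKO library lay far below every fl/fl library, and the fl/fl replicate 3 library was the highest.

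Snhg1, with 8 snoRNA genes in its span, was at 196, 228 and 437 CPM in fl/fl and 27.1, 20.3 and 27.3 CPM in SMKO (log2 fold change -3.53, SE 0.30). 1110038B12Rik, host of Snord52, was at 320.0, 347 and 589 CPM against 40.5, 37.2 and 46.6 CPM (-3.34, SE 0.24). Gas5, a growth-arrest transcript that holds 10 small RNA genes, was at 260.4, 293 and 627 CPM against 74.5, 93.6 and 109 CPM (-2.09, SE 0.31, adjusted p = 0.000122, edgeR). The genotypes did not overlap in any of these, although Gas5 varied more within fl/fl than within SMKO. Also lower were Rab26os (-3.91, host of Snord60), Snhg8 (-2.76), Snhg17 (-2.70), Epb41l4aos (-2.60) and the unnamed MGP_C57BL6NJ_G0016145 (-2.43, host of Snord50a), while Snhg4 was at the threshold (-1.01, SE 0.21).

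Not every host moved this way. Snhg6 was at 24.9, 29.0 and 59.6 CPM in fl/fl and 22.7, 20.5 and 25.6 CPM in SMKO, with overlapping genotypes and a log2 fold change of -0.72 (SE 0.29). Snhg18 was at 36.9, 38.5 and 58.3 CPM against 26.4, 31.7 and 33.6 CPM (-0.54, SE 0.19). MGP_C57BL6NJ_G0016007, which carries Snora15 and whose description holds a protein entry, was at 271, 265 and 332 CPM against 251, 215 and 241 CPM (-0.30, SE 0.13). Snhg20, host of a scaRNA, was higher, at 2.47, 2.53 and 2.88 CPM in fl/fl and 6.23, 6.52 and 7.85 CPM in SMKO (1.39, SE 0.23, adjusted p = 0.000308, edgeR). Snhg11, a host by name that is no member because its biotype is protein-coding, was higher too (6.85, SE 0.78).

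**Figure D3:**
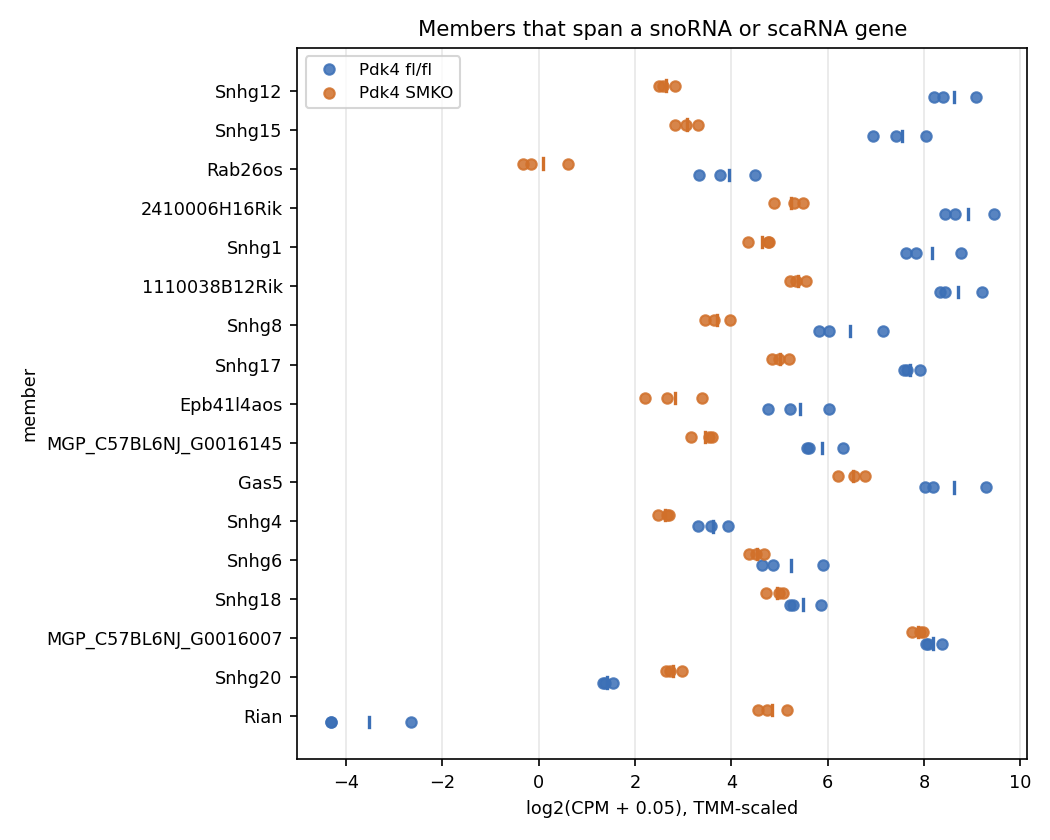
Level of each of the 17 members that span a snoRNA or scaRNA gene, as log2(CPM + 0.05) per library (points, x axis), with the mean of each genotype as a vertical tick. Blue is Pdk4 fl/fl and orange Pdk4 SMKO (3 libraries each), and the orange points lie left of the blue ones in the top 12 rows and right of them for Snhg20 and Rian.

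In 16 of the 17 hosts the highest fl/fl value was that of replicate 3, against 105 of all 192 members. Without that library Gas5 stood at -1.60, Snhg12 at -5.70, Snhg1 at -3.11 and Snhg8 at -2.25, all still lower, and Snhg4 at -0.84 was no longer called. The 66 cytosolic ribosomal protein genes, chosen after their values were seen, also stood highest in that fl/fl library: they took 64435.5, 72257.6 and 114009.8 CPM in fl/fl and 18150.3, 19161.2 and 22090.3 CPM in SMKO, and 62 of them were lower. Of the core proteins that bind snoRNAs, 7 of 9 were lower, among them Fbl, the methyltransferase (-2.87), and Nop56 (-2.62), while Dkc1 (-0.87) and Nop10 (-0.20) were not called. Among the nonsense-mediated decay factors, which degrade many host exons, 4 of 10 were lower (Upf1 at -1.24, Upf2 at -1.68) and Smg8 was higher (1.31). Of all genes tested, 26.5% were lower and 32.8% higher.

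Many snoRNA hosts and ribosomal protein genes start transcription in a terminal oligopyrimidine tract, a C followed by a run of C or T. The 60 bases around the annotated start are shown for hosts that fell and for Snhg20, which rose, to set these letters beside the fold changes. They are from RefSeq on GRCm38.p6, 30 bases before the start and 30 from it, with capitals marking a C followed by at least 4 bases of C or T that begins within 5 bases of the start.
2410006H16Rik (chr11:62602847-62602906, + strand): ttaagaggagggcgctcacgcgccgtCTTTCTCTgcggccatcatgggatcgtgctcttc
Snhg12 (chr4:132308648-132308707, + strand): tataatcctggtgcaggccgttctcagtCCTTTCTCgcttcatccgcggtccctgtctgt
Gas5 (chr1:161035136-161035195, + strand): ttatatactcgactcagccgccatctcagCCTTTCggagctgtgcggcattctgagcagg
Snhg8 (chr3:123508307-123508366, - strand): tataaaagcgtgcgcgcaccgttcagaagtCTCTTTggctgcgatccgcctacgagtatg
1110038B12Rik (chr17:34952442-34952501, - strand): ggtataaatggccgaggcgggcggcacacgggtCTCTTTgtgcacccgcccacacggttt
Rab26os (chr17:24528221-24528280, + strand): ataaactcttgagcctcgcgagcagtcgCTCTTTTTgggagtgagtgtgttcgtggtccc
Snhg1 (chr19:8723457-8723516, + strand): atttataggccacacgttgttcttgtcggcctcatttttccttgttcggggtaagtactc
Snhg20 (chr11:117076753-117076812, + strand): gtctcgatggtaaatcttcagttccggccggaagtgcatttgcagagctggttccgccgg
On the strand of the gene, such a tract lay in 7 of the 12 hosts with a promoter window (58.3%), in 26 of 49 ribosomal protein genes (53.1%), in 21 of the 79 other members with a window (26.6%) and in 21.2% of all 27025 genes with one. The part of the tract in the fold changes was not tested. Snhg1, Snhg15 and Snhg17 were lower without such a tract beginning within 5 bases of the annotated start, and Snhg18 holds one and was not called. Where a gene has several windows, the one that holds the tract was used, and 91 of the members were found in the table by symbol.

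The nuclear RNAs Malat1 and Neat1, neighbours 23316 bases apart on chromosome 19, moved in opposite directions. Malat1, the most counted member, was at 1376.7, 918 and 1377.2 CPM in fl/fl and 2213.3, 3274.4 and 3098.8 CPM in SMKO cultures, 2.34-fold higher (log2 fold change 1.23, SE 0.20, adjusted p = 0.000270, edgeR). Neat1, the scaffold of paraspeckles, was at 1216.1, 1106.5 and 1157.6 CPM against 408, 463 and 489.9 CPM, 2.56-fold lower (-1.36, SE 0.12, adjusted p = 3.9e-06, edgeR). The ratio of their counts was 1.13, 0.829 and 1.19 in the fl/fl libraries and 5.43, 7.08 and 6.32 in the SMKO libraries, and a ratio within a library does not depend on scaling. Neat1 was no longer called with library totals alone (-0.75). Among 7 paraspeckle proteins, 3 were lower, including Pspc1 (-2.03), Rbm14 was higher (2.78) and 3 were not called.

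Tug1, a p53-responsive nuclear RNA, was at 356, 341 and 392 CPM in fl/fl and 84.5, 94.7 and 97.9 CPM in SMKO, 3.93-fold lower (-1.97, SE 0.12). Of the 4 members on the p53 list, 3 were lower (Neat1, Gas5 and Tug1), and Trp53cor1, the lincRNA-p21, was at 2.29 ± 0.145 CPM in fl/fl and 3.62 ± 0.462 CPM in SMKO (SD, n = 3) and not called (0.66). Lncpint, another RNA known to be induced by p53, was at 23.1, 20.2 and 26.9 CPM against 0.307, 0.249 and 0.589 CPM, 61.3-fold lower (-5.92, SE 0.29).

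Of the 3 members on the list of imprinted RNAs, 2 were higher in SMKO cultures. Rian, the transcript of the Dlk1-Dio3 region that carries 13 small nucleolar RNA genes, had 0, 2 and 0 counts in the fl/fl libraries and 807, 471 and 544 in the SMKO libraries, a ratio of 669 (95% exact binomial interval 185 to 5525.6, counting error only). Peg13, which lies inside Trappc9 on the same strand, had 8, 10 and 4 counts against 483, 642 and 614, 60.1-fold higher in CPM. Kcnq1ot1, the antisense RNA that silences the Kcnq1 domain, was at 7.20, 3.90 and 4.01 CPM in fl/fl and 9.27 ± 0.554 CPM in SMKO (SD, n = 3, lowest 8.91 CPM; 0.88, SE 0.26) and was not called. Peg13 and Rian were thus near 0 in every fl/fl library, while Kcnq1ot1 was measured in all 6 and separated the genotypes narrowly. Mirg and Igf2os, imprinted RNAs under the minimum, had 0 counts in every fl/fl library and at most 33 in an SMKO library.

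Of the 10 members that span a miRNA gene on their own strand, 4 were lower and 6 were higher, against 26.5% and 32.8% of all genes tested. Mature miRNAs were not measured. The sequences below, from RefSeq on GRCm38.p6, show what these primary transcripts would yield, since hosts of miRNAs with the same seed moved in opposite directions. Capitals mark the seed, bases 2 to 8.
mmu-miR-100-5p, in MGP_C57BL6NJ_G0016130: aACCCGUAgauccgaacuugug
mmu-miR-99a-5p, in MGP_C57BL6NJ_G0015716: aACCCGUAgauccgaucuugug
mmu-miR-125b-5p, in both of these: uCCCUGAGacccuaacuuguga
mmu-let-7c-5p, in MGP_C57BL6NJ_G0015716: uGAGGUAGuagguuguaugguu
mmu-let-7d-5p, in 6720427I07Rik: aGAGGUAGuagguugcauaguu
mmu-miR-15a-5p, in Dleu2: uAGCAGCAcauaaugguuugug
mmu-miR-16-5p, in Dleu2: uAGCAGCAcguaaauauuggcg
mmu-miR-22-3p, in Mir22hg: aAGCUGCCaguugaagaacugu
mmu-miR-199a-5p, in Dnm3os: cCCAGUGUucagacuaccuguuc
mmu-miR-214-3p, in Dnm3os: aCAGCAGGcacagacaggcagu
Counted from the 5′ end, miR-99a-5p differs from miR-100-5p at A16U, and let-7d-5p from let-7c-5p at U1A, U16C and G19A, all outside the seed.

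MGP_C57BL6NJ_G0016130 on chromosome 9 spans Mir100, Mirlet7a-2 and Mir125b-1, and it was at 7.13, 6.81 and 11.7 CPM in fl/fl and 107 ± 24.6 CPM in SMKO cultures (SD, n = 3, lowest 86.0 CPM, highest 134 CPM), 12.5-fold higher (3.65, SE 0.25, adjusted p = 4.5e-07, edgeR). MGP_C57BL6NJ_G0015716 on chromosome 16 spans the related Mir99a, Mirlet7c-1 and Mir125b-2, and it was at 8.33, 7.30 and 8.70 CPM against 1.36, 1.24 and 1.13 CPM, 6.52-fold lower (-2.69, SE 0.25). The fl/fl levels of the pair lay within 6.81 and 11.7 CPM, and the SMKO levels lay apart on either side. 6720427I07Rik, which holds Mirlet7d, was at 0.800 ± 0.0318 CPM in fl/fl and 5.39 ± 2.18 CPM in SMKO (2.74).

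Dleu2, host of Mir15a and Mir16-1 and known as a transcript of a region deleted in leukaemia, was at 119, 143 and 207 CPM in fl/fl and 4.30, 4.48 and 5.30 CPM in SMKO, 33.3-fold lower (-5.06, SE 0.24). Mir22hg was at 3.73, 4.28 and 4.39 CPM against 60.1, 53.2 and 49.2 CPM, 13.1-fold higher (3.71, SE 0.16). Dnm3os, the antisense host of Mir199a-2 and Mir214 that lies within Dnm3, had 1, 3 and 3 counts against 342, 272 and 337, 98.4-fold higher in CPM. Dnm3 itself was higher too (5.27), at 0.0444 CPM in fl/fl and 1.93 CPM in SMKO. In each of these hosts the SMKO libraries lay within a narrow range, well clear of fl/fl. MGP_C57BL6NJ_G0015646, which spans Mir6368, was lower (-1.58, SE 0.27) and was not called with library totals alone (-0.98).

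**Figure D4:**
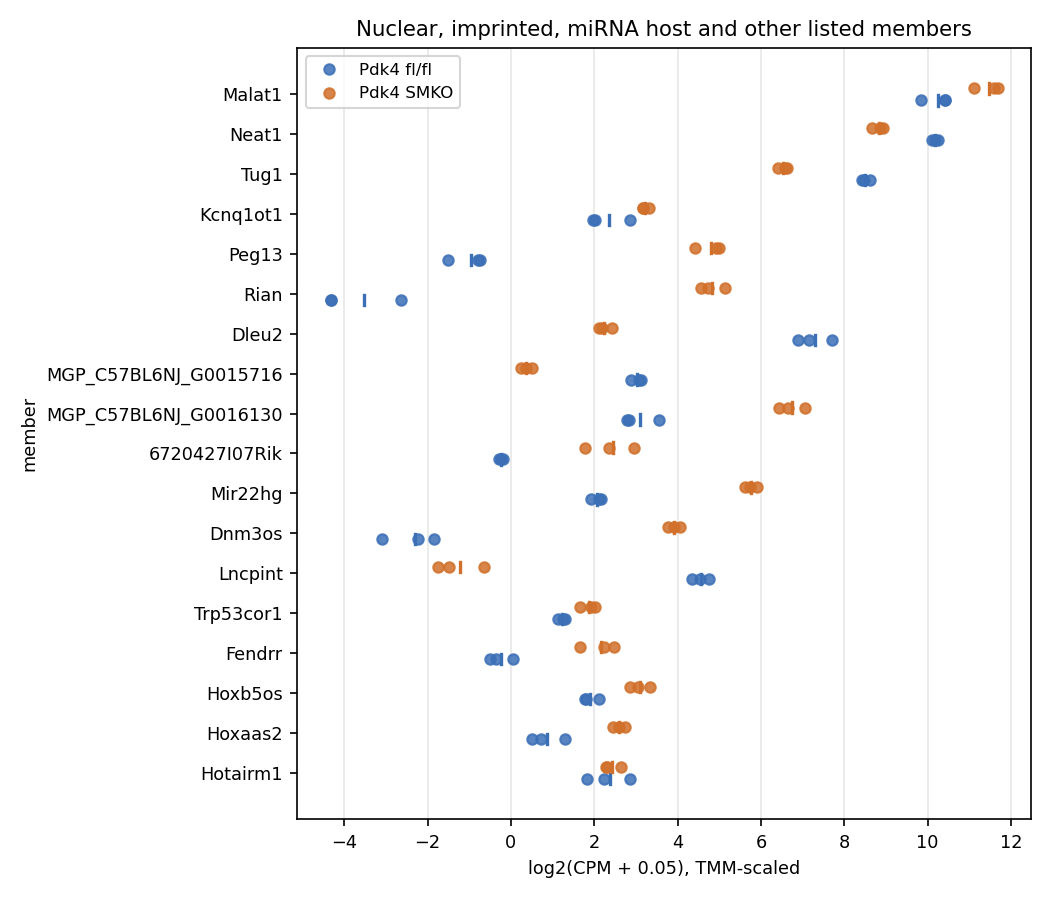
Levels of 18 listed members as log2(CPM + 0.05) per library (points, x axis), with the mean of each genotype as a vertical tick, blue for Pdk4 fl/fl and orange for Pdk4 SMKO (3 libraries each). Malat1 lies to the right in SMKO and Neat1 to the left, the hosts on chromosomes 9 and 16 part in opposite directions, and Hotairm1 overlaps.

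Of the 12 members on the smooth muscle and heart list, 6 were lower, 4 were higher and 2 were not called, several of them described above. Fendrr, a regulator of lateral mesoderm genes, was at 0.733, 0.659 and 0.984 CPM in fl/fl and 5.49, 3.09 and 4.66 CPM in SMKO, 5.57-fold higher (2.49, SE 0.36). Among the 3 members on the HOX cluster list, Hoxaas2 was at 2.40, 1.37 and 1.59 CPM against 5.40, 6.62 and 5.99 CPM (1.75, SE 0.29). Hoxb5os was higher as well (1.19, SE 0.23), with Hoxb5 itself at -0.46 and not called, and Hotairm1 was at 5.13 ± 1.94 CPM in fl/fl and 5.31 ± 0.797 CPM in SMKO (0.06). Gm15050, a member outside that list whose span overlaps Hoxa3 on the other strand, went the other way. It was at 8.99 CPM in fl/fl and 3.10 CPM in SMKO and was lower (-1.53, SE 0.22). Carmn, a smooth muscle RNA under the minimum, had 19, 12 and 10 counts against 90, 64 and 60 and was higher (1.91).

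At the low extreme, Gm12596 had 168, 163 and 100 counts in the fl/fl libraries and 0 in every SMKO library, at least 64.7-fold lower against a floor of 3 counts per library. 4930540M05Rik was at 28.7, 36.6 and 40.1 CPM against 0.176, 0.149 and 0.0981 CPM, 249-fold lower. Also in this group, by CPM means, were 4933413J09Rik (120.0-fold lower), Gm15708 (112-fold), whose span overlaps Baiap2l1 and Bri3, Stamos (75.9-fold) and 2810468N07Rik (71.5-fold), the last listed by RefSeq as Cerox1, a regulator of mitochondrial complex I. In these 6 no SMKO library had more than 27 counts and no fl/fl library fewer than 100.

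At the high extreme, Gm26760 had 0 counts in every fl/fl library and 100, 109 and 157 in SMKO, at least 29.6-fold higher. MGP_C57BL6NJ_G0002841, whose description holds a protein entry, had 0, 0 and 1 counts against 323, 329 and 453, a ratio of 811 (interval 145 to 32064.0). Its span overlaps the unnamed protein-coding MGP_C57BL6NJ_G0016837 on the other strand. 9030622O22Rik had 0, 0 and 1 counts against 94, 124 and 130, a ratio of 255 (interval 45.5 to 10117.6). Gm20488, whose description also holds a protein entry, was at 2.00, 0.659 and 1.36 CPM against 73.5, 90.0 and 87.3 CPM. Its span overlaps Medag, so reads of the genes may be shared. With Rian and Dnm3os these make up the 6 most raised members.

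At the other end, 5 members showed the smallest changes. 1010001N08Rik, listed by RefSeq as Gata6os, was at 10.4 ± 1.30 CPM in fl/fl and 10.3 ± 0.807 CPM in SMKO (SD, n = 3, log2 fold change -0.02, SE 0.18). 2900089D17Rik, Fam120aos, Hotairm1 and 1810034E14Rik lay between -0.02 and 0.07, with SE of 0.24 to 0.31. In all 5 the genotypes overlapped.

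MGP_C57BL6NJ_G0005862 had the highest level per length averaged over both genotypes (893 CPM per kb), with 1750.0 CPM per kb in fl/fl and 36.5 CPM per kb in SMKO cultures, from 1484.0, 1936.7 and 1141.6 CPM against 42.0, 35.2 and 17.9 CPM (-5.58, SE 0.35). It lies at 42270858 to 42272029 on chromosome 17 of the table, between Esp16 and Esp38. In GENCODE M21 on GRCm38 the stretch between those genes holds, beside Esp15 and pseudogenes, the lincRNAs Gm26917, Gm42418 and AY036118 and the rRNA gene CT010467.1. Rn7sk, a small nuclear RNA without a poly(A) tail, was lower too (-5.15), with 385, 612 and 949 counts in fl/fl and 19, 26 and 32 in SMKO. The part of ribosomal RNA reads in the value of this gene was not tested. By the same average, 2410006H16Rik (1042.4 CPM per kb in fl/fl and 82.0 in SMKO), Malat1 (175 and 409.9), 1110038B12Rik (231 and 22.9) and Snhg12 (242 and 3.80) came next. The order differed between genotypes: in fl/fl Snhg12 and 1110038B12Rik stood above Malat1, and in SMKO Malat1, 2410006H16Rik and MGP_C57BL6NJ_G0016007 (69.8 CPM per kb) stood above MGP_C57BL6NJ_G0005862. Without the 3 most counted members, the other 189 took 4650.4 to 7004.9 CPM in fl/fl and 2206.6 to 2360.0 CPM in SMKO libraries.

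Divergent transcription was examined through 52 pairs in which a member's annotated start lies within 1000 bases of the start of a protein-coding gene on the opposite strand. Whether the genes of a pair share a promoter was not tested. In 51 pairs the partner was tested, and in 24 both were called: 15 pairs fell together, 2 rose together, 4 had a lower member with a higher partner and 3 the reverse. Only the member was called in 10 pairs, only the partner in 11 and neither in 6. Lower calls were common among these members and among these partners, each taken alone. The counts of pairs were not set against those shares, so they do not measure a link within pairs. Over the 51 pairs the log2 fold changes correlated at Pearson's r = 0.41 and Spearman's rho = 0.36, a description across pairs that share libraries and scaling. In the 33 pairs whose spans do not overlap, 12 moved together and 4 apart (r = 0.56, rho = 0.55), and in the 18 tested pairs with overlapping spans 5 moved together and 3 apart (r = -0.10, rho = -0.15). The use of strand in counting is not given in the sources used here, so reads of overlapping pairs cannot be told apart.

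Among the 8 pairs with the most counted members, Snhg1 fell with Slc3a2, the heavy chain of amino acid transporters, which was at 571 ± 26.5 CPM in fl/fl and 136 ± 9.07 CPM in SMKO (SD, n = 3, -2.07). Tug1 fell with Morc2a (143 ± 42.0 against 68.0 ± 0.766 CPM, -1.08), and 1700101I11Rik (-2.01) with the autophagy gene Gabarapl1 (498 ± 37.2 against 128 ± 16.0 CPM, -1.96). Gas5 fell while Zbtb37 rose from 2.36 ± 0.572 to 28.7 ± 4.68 CPM (3.62). Psph (-2.61) was lower beside the uncalled MGP_C57BL6NJ_G0016007, and Sema5a (1.92) was higher beside the uncalled Snhg18. Brip1os was higher, at 17.2, 15.5 and 20.7 CPM against 83.1, 72.7 and 75.4 CPM, beside the uncalled Brip1 (0.81). Spans overlap in the pairs of Tug1, 1700101I11Rik, Gas5 and MGP_C57BL6NJ_G0016007, so the reads within each of these pairs cannot be told apart.

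Pairs that fell furthest together included 4930540M05Rik with Rad52, a DNA repair gene at 324 ± 23.3 CPM in fl/fl and 8.79 ± 0.740 CPM in SMKO (-5.21), whose starts lie 45 bases apart in the table. Stamos (31.1, 40.6 and 29.4 CPM against 0.439, 0.547 and 0.343 CPM) fell with Stam, an endosomal sorting adaptor at 655 ± 65.1 CPM against 45.3 ± 4.27 CPM (-3.85). Gm16853 (-5.47) fell with Qtrt1 (-5.42), Gm12905 (-5.43) with Rragc (-4.02) and 2810468N07Rik with Sox8 (-4.24). Sox8 had only 27, 28 and 20 counts in fl/fl and 1, 2 and 2 in SMKO. Shown are the bases between the RefSeq starts of 2 such pairs on GRCm38.p6, read towards the noncoding start, with CG pairs in capitals.
Stamos and Stam (chr2:14073935-14074099, - strand): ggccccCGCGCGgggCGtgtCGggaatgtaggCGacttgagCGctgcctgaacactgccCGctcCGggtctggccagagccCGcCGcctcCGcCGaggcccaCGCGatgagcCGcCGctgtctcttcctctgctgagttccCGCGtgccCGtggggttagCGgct
Gm16853 and Qtrt1 (chr9:21411721-21411836, - strand): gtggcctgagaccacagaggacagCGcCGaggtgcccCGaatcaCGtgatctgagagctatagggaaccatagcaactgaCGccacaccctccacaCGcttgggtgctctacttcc
The first holds 21 CG pairs in 165 bases and the second 6 in 116, or 12.7 and 5.17 per 100 bases, against a median of 2.40 per 100 in the 250 bases before all 32851 annotated starts and 4.40 before those of members. The stretches between starts are shorter and lie nearer to a start than those windows, so the densities are not like for like.

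**Figure D5:**
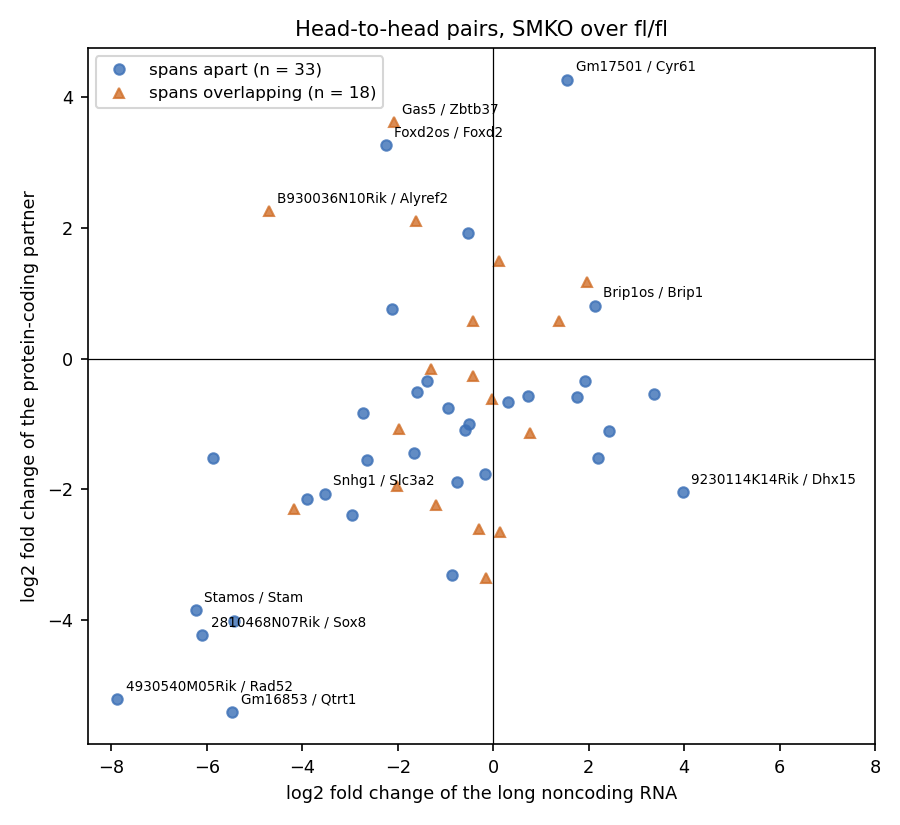
Log2 fold change of each long noncoding RNA (x axis) and of the protein-coding gene that starts within 1000 bases on the other strand (y axis), SMKO over fl/fl. Blue circles are 33 pairs with separate spans and orange triangles 18 pairs with overlapping spans, and the pairs with both values below -3 have separate spans.

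Pairs that parted included Foxd2os (-2.25) with Foxd2 (3.27), Cep83os (2.19) with Cep83 (-1.52), 9230114K14Rik (3.97) with Dhx15 (-2.04) and B930036N10Rik (-4.70) with Alyref2 (2.26). Foxd2 and Alyref2 rest on few counts. Foxd2 had 7, 4 and 2 in fl/fl and 41, 69 and 62 in SMKO, and Alyref2 had 4, 3 and 0 against 15, 12 and 20. The spans of B930036N10Rik and Alyref2 overlap. Of the 13 members named after a gene on the other strand, Kdm6bos (-5.79) fell with Kdm6b (-2.31), a histone demethylase. Emx2os (1.97) rose with Emx2 (1.17), and Epb41l4aos fell while Epb41l4a rose (3.79). The spans of Kdm6bos and Emx2os overlap those of Kdm6b and Emx2, so reads may be shared.

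Several RefSeq names bear on members outside these lists. 1700020I14Rik, now Oip5os1, was at 31.4, 34.1 and 48.7 CPM in fl/fl and 84.9, 90.5 and 108 CPM in SMKO (1.31, SE 0.18). 1810026B05Rik, now Chaserr, a restrainer of Chd2, was at 90.6, 89.6 and 108 CPM against 10.5, 11.6 and 12.0 CPM (-3.08, SE 0.14). Gm14005, now Morrbid, a survival RNA of myeloid cells, was lower (-2.21), as were Crnde (-2.80) and Gm12603, now Wincr1 (-2.11), while Dubr was higher (2.65). The lincRNA MGP_C57BL6NJ_G0005726, whose nearest named coding gene upstream is Myc, 60505 bases away, was at 154, 171 and 215 CPM against 19.9, 20.0 and 24.1 CPM (-3.07). These 7 genes were chosen after their values were seen.

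By biotype, 27 of 55 processed transcripts were lower and 12 higher, 30 of 83 lincRNAs were lower and 30 higher, and 15 of 46 antisense RNAs were lower and 17 higher. The biotype was checked against the gene descriptions, where 58 of the 192 carry a Swiss-Prot protein entry, among them Tmem134, Ptpmt1 and Inafm2, and for 7 members RefSeq lists a newer symbol of a protein-coding gene. Among the 134 without such an entry, 54 were lower and 43 higher (40.3% and 32.1%), and among the 58 with one, 20 were lower and 19 higher. The span of 113 members overlaps another counted gene, and 45 of these were lower and 35 higher, against 29 lower and 27 higher of the 79 that overlap none.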

How the data were processed

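RNA from 6 cultures was sequenced as paired-end reads of 150 bases, and the authors deposited raw counts per gene with biotype, coordinates and description. The labels name a SMARTER mRNA kit and the study's methods a NEBNext Ultra kit, so the library type, and with it the strand and the capture of RNAs without a poly(A) tail, is unsettled. The aligner, the counter and its use of strand are not given in the sources used here, and gene identifiers follow the C57BL/6NJ strain assembly, whose coordinates are given as the table has them. From the deposited counts, edgeR 4.0.16 (R 4.3.3; TMM scaling, its filter on low counts, quasi-likelihood test, Benjamini-Hochberg adjustment over 14085 genes) compared 3 SMKO with 3 fl/fl libraries. Levels are CPM of TMM-scaled totals, with factors of 0.784 to 0.838 in fl/fl and 1.21 to 1.26 in SMKO.

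Members and lists were chosen with earlier results of these data known. Named members are those on the lists, the 6 most raised and most lowered, the 5 highest per length, the 8 most counted pairs, the 5 least changed and those next to the minimum, and any other was named after its values were seen. The values of 1 of those pairs are not reported here. Small RNA genes were assigned to hosts by position on the same strand. Ratios against 1 to 3 counts have 95% exact binomial intervals, and those against 0 use a floor of 3 counts per library, covering counting error only. Exact permutation tests cannot go below 0.1 with 3 against 3. On simulated counts with known changes, the test recovered 64 of 98 2-fold and 93 of 98 4-fold changes and called 13 unchanged genes. That simulation changed few genes, equally in both directions, and scored adjusted p under 0.05 without the fold threshold. It does not give the recovery for real libraries in which most genes were called. DESeq2 1.42.0, other scalings, filters, minimum counts and left-out libraries were alternatives.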

Additional observations from a re-analysis of the deposited data

How the results depend on the processing

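Library totals alone turned the members' median log2 fold change to 0.15, against 0.72 for all genes tested. Upper-quartile factors moved it to -0.24, against 0.33. A summed count of at least 100 gave 140 lower and 168 higher with a median of 0.41, and at least 1000 gave 32, 16 and -1.20. Restricting to members that overlap no other counted gene left 29 lower and 27 higher, and to those with at least 150 counts in each genotype 38 and 14 with a median of -0.70. With at least 10 counts in every library, 158 members were tested, 53 were lower and 47 higher, and 1 snoRNA host was higher. Of the 11301 genes tested under that filter, 24.6% were lower and 28.0% higher. With spans apart, 4 pairs were called in opposite directions. DESeq2 called 74 lower and 62 higher, against 17.8% lower and 21.2% higher of the 24025 genes it tested. Leaving out each library in turn gave 71 to 77 lower, 60 to 64 higher and medians of -0.51 to -0.40, with 11 to 12 snoRNA hosts lower and 2 higher.

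The replicate numbers share no origin in the labels, and same-numbered libraries deviated together at r = 0.0396, 0.0604 and 0.176, so they were not taken as pairs. The replicate block gave 73 lower, 62 higher, a median of -0.47 and 11 snoRNA hosts lower. Of 715 refits of 56 named genes, 696 kept their side of the threshold, 9 lost and 10 gained a call and 0 reversed. Snhg4 lost its call under 7 alternatives (-0.99 to -0.40) and Neat1 and MGP_C57BL6NJ_G0015646 with library totals alone. Gm12602, Kcnq1ot1 and Trp53cor1 gained one. The causes were not tested.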

Other observations

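Several listed noncoding RNAs stood below the minimum summed count. Mir17hg, host of the miR-17 cluster, had 2, 4 and 4 counts in the fl/fl libraries and 76, 67 and 76 in the SMKO libraries, and was higher (log2 fold change 3.96). Mirt1 had 21, 33 and 10 counts in fl/fl and 1, 0 and 0 in SMKO. Snhg11, which the table lists as protein-coding, had 0, 0 and 2 counts in fl/fl and 213, 79 and 83 in SMKO, and was higher (6.85). Mir155hg was not called, with a log2 fold change of 1.00.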
